A study of Mus musculus with 6 samples.

Results

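Germline stem cells carried 547 windows of 1000 bp in which methylation was lower than in a reference library over 8 or more positions. The windows were found on a fixed grid, dividing each chromosome into consecutive 1000 bp segments. A window was taken when 8 or more listed positions of the germline stem cell library had lower methylation, called hypo below, and these made up at least 80% of its listed positions. Positions with higher methylation are called hyper. Positions 1 bp from a position of the opposite direction in the same library were removed first. The 547 windows are 0.545% of the 100277 windows that held a kept position of this library, and 3552 windows held 8 or more. The windows were chosen by the methylation differences of the germline stem cell library, so its values are a description, without a test.

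Reduced representation bisulfite sequencing (RRBS), an assay of methylation in CpG-rich restriction fragments, was applied to 6 cultured mouse lines of the OG2 strain. There was 1 line of germline stem cells (GSC), which are spermatogonial stem cells in culture. Pluripotent lines derived from the germline (gPSC) and induced pluripotent lines made from GSC (iPSC) numbered 2 each, both named as independent, and 1 line was of embryonic stem cells (ESC). All share the strain, and neither a treatment nor an age is given for them. The 5 libraries other than ESC have tables of positions that differ from a library the tables do not name, taken here to be the ESC library and called the reference. The tables give a difference in percentage points, a p and a q, without read numbers or methylation levels. The depth is therefore unknown, and a position that is not listed can be unchanged or unmeasured. After the removal 6342, 764, 1023, 1156 and 646 listed positions lay in the windows in GSC, iPSC 1, iPSC 2, gPSC 1 and gPSC 2, of 220312, 121461, 144163, 136080 and 139812 in all. Since all tables share the reference, agreement between libraries can come from it, and their values are set side by side only.

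Cytosine methylation in mammals sits mainly in CpG dinucleotides. A CpG reads the same on both strands, and the maintenance methyltransferase copies the mark to the new strand after replication, so the cytosines of both strands usually carry the same state. Most CpG-rich promoters, the CpG islands of broadly expressed genes, are unmethylated in germ cells and in pluripotent cells alike, with germline genes among the exceptions. Bisulfite reads report each strand separately.

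Promoters with many marked positions are shown first, because they let the strand and spacing of the marked cytosines be seen. Scarf2 is among them as the named promoter that has marks on both strands. Each sequence is that of the RefSeq table for GRCm38.p6, from 250 bases before to 50 bases after a gene start, read in the direction of the gene. Capitals mark the CpG of every GSC hypo position that falls in it and is at a CpG. The Arl8a position 55 bp before the gene start, at −46.3 points, was at no CpG and has no mark.
Arl8a: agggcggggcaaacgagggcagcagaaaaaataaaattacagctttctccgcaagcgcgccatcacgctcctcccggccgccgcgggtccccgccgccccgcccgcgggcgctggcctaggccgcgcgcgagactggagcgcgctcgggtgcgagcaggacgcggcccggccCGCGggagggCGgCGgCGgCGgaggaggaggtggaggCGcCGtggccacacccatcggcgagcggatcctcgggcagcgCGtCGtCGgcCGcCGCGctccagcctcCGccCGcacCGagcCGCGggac
Mta1: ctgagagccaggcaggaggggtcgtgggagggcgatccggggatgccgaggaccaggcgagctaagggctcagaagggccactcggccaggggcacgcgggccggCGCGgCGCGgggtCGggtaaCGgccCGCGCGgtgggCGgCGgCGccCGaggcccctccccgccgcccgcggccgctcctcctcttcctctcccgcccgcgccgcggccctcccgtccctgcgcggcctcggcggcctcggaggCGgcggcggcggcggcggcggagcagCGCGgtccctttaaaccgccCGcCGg
Atp5j: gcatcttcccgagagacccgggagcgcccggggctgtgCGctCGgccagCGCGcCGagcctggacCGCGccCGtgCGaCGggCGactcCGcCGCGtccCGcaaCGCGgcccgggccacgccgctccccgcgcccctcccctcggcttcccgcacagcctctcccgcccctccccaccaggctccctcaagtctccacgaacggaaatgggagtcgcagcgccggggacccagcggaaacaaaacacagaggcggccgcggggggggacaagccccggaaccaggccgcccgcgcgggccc
Ptprf: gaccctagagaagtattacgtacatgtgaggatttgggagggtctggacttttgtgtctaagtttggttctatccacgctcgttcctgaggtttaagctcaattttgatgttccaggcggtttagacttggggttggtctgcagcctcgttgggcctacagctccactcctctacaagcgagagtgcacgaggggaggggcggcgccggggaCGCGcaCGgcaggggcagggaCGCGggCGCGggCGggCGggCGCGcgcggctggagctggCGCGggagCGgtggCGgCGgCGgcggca
Zfp746: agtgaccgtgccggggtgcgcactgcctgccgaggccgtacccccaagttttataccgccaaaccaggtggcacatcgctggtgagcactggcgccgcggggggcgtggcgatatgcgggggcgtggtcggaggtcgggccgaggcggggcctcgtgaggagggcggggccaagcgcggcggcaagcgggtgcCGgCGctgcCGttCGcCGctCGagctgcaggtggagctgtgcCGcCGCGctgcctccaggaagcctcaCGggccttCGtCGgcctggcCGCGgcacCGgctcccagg
Scarf2: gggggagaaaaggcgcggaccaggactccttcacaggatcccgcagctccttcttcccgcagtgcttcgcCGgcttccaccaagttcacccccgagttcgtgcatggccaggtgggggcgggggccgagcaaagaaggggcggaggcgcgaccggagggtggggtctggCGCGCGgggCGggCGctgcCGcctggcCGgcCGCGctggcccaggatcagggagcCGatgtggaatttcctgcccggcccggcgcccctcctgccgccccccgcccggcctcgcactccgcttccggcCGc
Hivep1: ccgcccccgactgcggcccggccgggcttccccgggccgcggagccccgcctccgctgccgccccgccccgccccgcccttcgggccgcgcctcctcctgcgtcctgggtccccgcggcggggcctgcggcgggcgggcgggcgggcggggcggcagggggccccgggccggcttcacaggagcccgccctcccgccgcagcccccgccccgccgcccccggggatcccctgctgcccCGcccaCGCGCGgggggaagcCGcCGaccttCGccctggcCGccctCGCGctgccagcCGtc
The Arl8a sequence (chr1:135146584-135146883, plus strand) held 19 marked positions among 51 CpG, and each was the cytosine of the minus strand. Mta1 (chr12:113098028-113098327, plus strand) held 18 and Atp5j (chr16:84835576-84835875, minus strand) 17, again minus-strand cytosines without exception. Ptprf (chr4:118291348-118291647, minus strand) held 17, Zfp746 (chr6:48086544-48086843, minus strand) 15 and Hivep1 (chr13:42051771-42052070, plus strand) 11, and these were plus-strand cytosines without exception. Scarf2 (chr16:17797032-17797331, plus strand) held 12, of which 10 were plus-strand and 2 minus-strand cytosines. The marked CpG followed each other without a gap in Atp5j, Zfp746 and Hivep1 and formed more than 1 series in Arl8a, Mta1, Ptprf and Scarf2, and other CpG of each sequence carried no mark.

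In most windows where the strand could be read, the hypo positions lay on 1 strand of the DNA. Of 6202 hypo positions 1631 (26.3%) fell within the RefSeq promoter sequences and could be placed, 771 on plus-strand and 860 on minus-strand cytosines, and 2 further positions were at no CpG. In 143 of the 547 windows 6 or more positions were placed, and the other windows were left out of this count. In 128 of the 143 (89.5%, 95% Wilson interval 83.4 to 93.5, counting error only) all placed positions lay on the same strand, plus in 59 and minus in 69. No hypo position in the 547 windows had a second hypo position 1 bp away, so no CpG was listed as hypo on both strands (0 of 6202 positions). An upper limit of 0.0484% would hold only for independent positions, and neighbouring positions can share reads. The removal step does not set the count of 0, because it takes out opposite neighbours only. It took 690 hypo and 691 hyper GSC positions out of these windows. Of those, 249 could be placed, and they formed 124 CpG listed as hypo on one strand and hyper on the other.

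The mirror set differed in this respect. GSC had 2819 windows with 8 or more hyper positions making up at least 80%, and there 33.9% of 31166 hyper positions belonged to a CpG listed as hyper on both strands. Only 650 of the hyper positions (2.09%) could be placed, so the strand reading covers a small part of the 2819 windows. Of 64 such windows with 6 or more placed positions, 36 (56.3%, 44.1 to 67.7) had all of them on 1 strand. The hyper windows also had smaller p-values, with a median −log10 p of 8.78 against 3.83 in the hypo windows. The part of read number in the strand pattern was not tested.

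**Figure D1:**
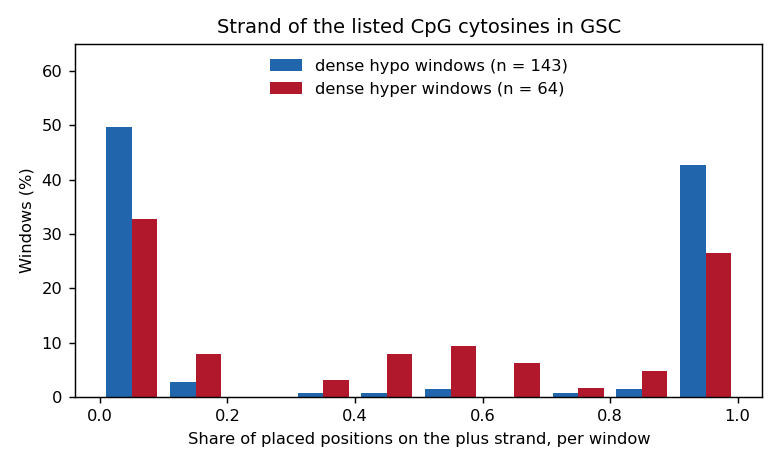
Share of placed positions on the plus strand per GSC window, in bins of equal width on the x axis, against the percent of windows on the y axis, for 143 dense hypo windows (blue) and 64 dense hyper windows (red). Nearly all of the 143 hypo windows sit in the first or last bin, and 128 of them hold placed positions of 1 strand only.

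Libraries that did not choose the windows were examined in the same way outside them. Windows with 8 or more hypo positions at a share of 80% numbered 143 and 218 in iPSC 1 and 2 and 117 and 131 in gPSC 1 and 2 once the 547 windows were left out. All placed positions were on 1 strand in 41 of 43, 40 of 42, 26 of 28 and 35 of 35 of these windows. In hyper windows of the same lines the counts were 19 of 23, 12 of 16, 22 of 32 and 13 of 18. Hypo positions with a second one 1 bp away made up 0.122%, 0.0840%, 0% and 0.140% in the 4 lines, against 18.9%, 14.8%, 15.7% and 17.0% of hyper positions. The share was lower for hypo positions in 4 of 4 lines, by 16.5 ± 1.76 percentage points (SD, n = 4), and an exact permutation test that changed the signs of the 4 differences gave a two-sided p = 0.125, the smallest value that 4 lines allow. The share of windows on 1 strand was higher for hypo windows in 4 of 4 lines, by 21.2 ± 6.43 points (SD, n = 4, same exact test, two-sided p = 0.125). The lines share the reference and are not independent in this respect.

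The spread of the differences inside a window varied from window to window. The SD of the hypo differences inside a window had a median of 7.17 points and was under 5 points in 207 windows, while the means of the windows ranged from −92.1 to −27.1 points with an SD of 14.4 points. In the hyper windows the median SD was 17.9 points. Split wherever the gap exceeded 50 bp, the hypo positions formed 947 runs, and 267 windows held a single run. Runs of 5 or more positions numbered 576, held 90.5% of the hypo positions and had a median extent of 70 bp and a median SD of 3.78 points. Of 171 runs with 4 or more placed positions, 168 (98.2%, 95 to 99.4) were on 1 strand, against 48 of 71 (67.6%, 56.1 to 77.3) in hyper windows. The hyper count rests on the 2.09% of hyper positions that could be placed. Neighbouring positions of a run can be covered by the same reads, so a window with 20 positions is not 20 independent measurements.

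Arl8a, a small GTPase of lysosome transport, shows the pattern in all 5 libraries (chromosome 1, 135146000 to 135146999). Its window held 20 hypo positions in GSC over 123 bp, between −50.8 and −44.7 points. The mean difference was −48.2 points in GSC, −48.1 in iPSC 1, −48.5 in iPSC 2 and −47.3 in gPSC 2, with 20 hypo positions in each. In gPSC 1 the same number of hypo positions stood beside 10 hyper positions, each with a difference of 77.4 points and each a plus-strand cytosine, between 128 and 88 bp before the gene start. Over the hypo series the 5 libraries had nearly equal differences from the shared reference, and gPSC 1 alone added a hyper series on the other strand.

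**Figure D2:**
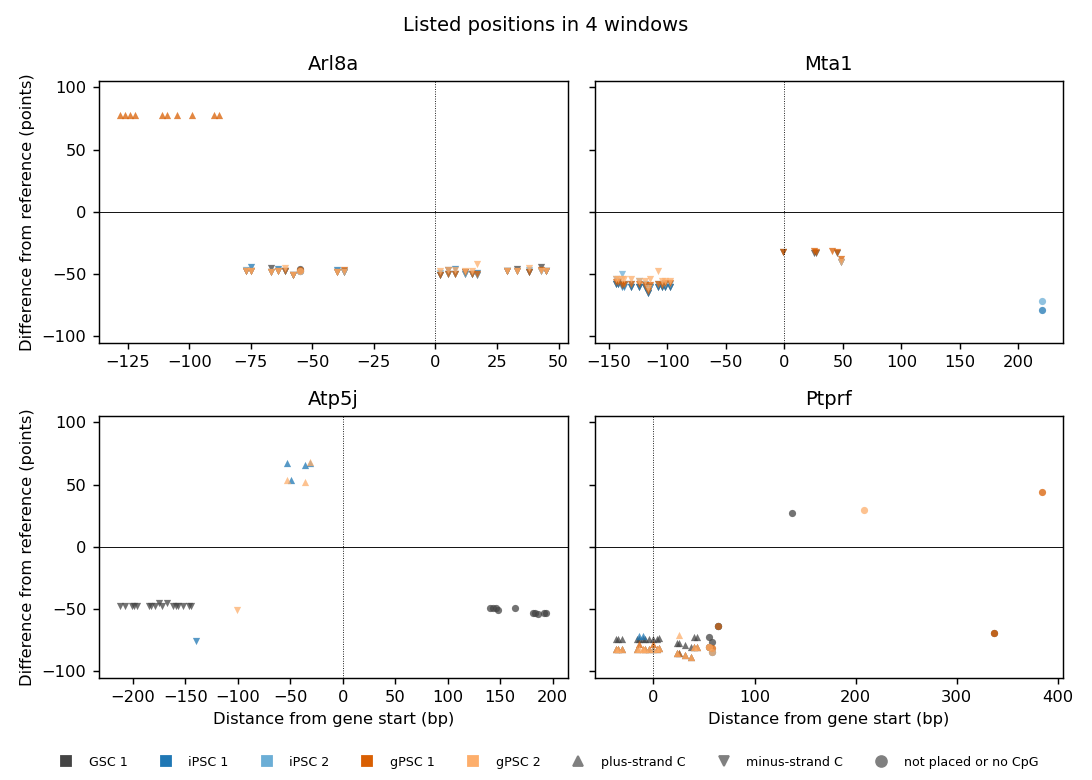
Difference from the reference in percentage points (y axis) of each kept position against its distance from the gene start in bp (x axis) in the windows of Arl8a, Mta1, Atp5j and Ptprf, with libraries by colour and the strand of the cytosine by marker. The hypo positions that could be placed sit on 1 strand in each window, circles mark positions that were not placed or are at no CpG (10 of 27 in GSC at Atp5j), and the 10 hyper positions of gPSC 1 at Arl8a, at 77.4 points, are plus-strand cytosines.

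Most windows lay at gene starts. A start of the RefSeq promoter table was within 2000 bp of the centre of 406 windows (74.2%), and within 500 bp in 307. A further 114 were assigned to a gene whose span holds the centre and 27 had no gene, and 16 of the 547 windows are on chromosome 18, for which the promoter table has no entry. Of the hyper windows of GSC 330 of 2819 (11.7%) were at a start. The share at a start over all windows with a kept GSC position is not given here, and the part of assay coverage was not tested. The windows at starts belonged to 401 genes, or 1.48% of the 27025 genes of the table. Their 4644 hypo positions gathered around the start, 82.9% within 500 bp and 64.7% downstream. The strand of the cytosines did not follow the gene, being that of the gene in 66 and the opposite one in 62 of 128 windows (51.6%, 43.0 to 60.05).

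**Figure D3:**
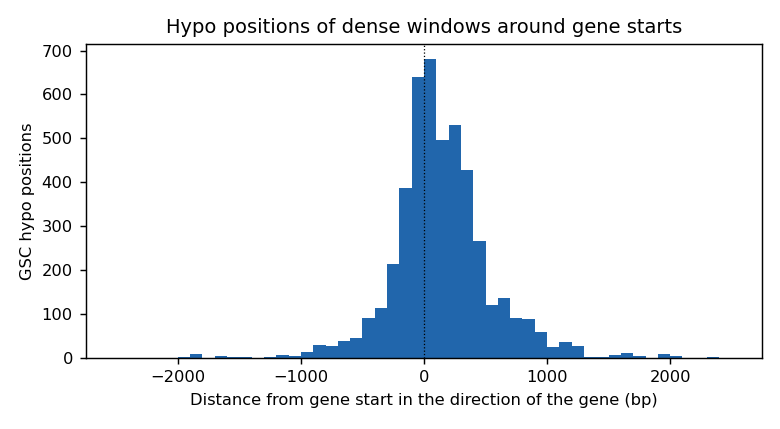
Number of GSC hypo positions (y axis) in bins of 100 bp by distance from the gene start in the direction of the gene (x axis), for the 406 windows at a gene start. The counts are highest at the start, with 82.9% of 4644 positions within 500 bp.

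The deposited annotation marked 58.5% of the hypo positions as promoter, 29.0% as exon alone or with another class, 5.40% as intron only and 34.9% with no feature. For hyper windows these shares were 16.1%, 19.3%, 16.5% and 59.4%. Among windows at a start, 91.8% of hypo positions at plus-strand genes and 31.3% at minus-strand genes were marked as promoter. The promoter mark thus differed with the strand of the gene, and the reason was not tested. In the 114 windows assigned by a gene's span, 46.1% of 1265 hypo positions were marked as promoter. The windows were spread over the autosomes and X, with 42 each on chromosomes 4, 8 and 11, 18 on chromosome 14 and 8 on X. Only 12 were next to another of the 547 windows.

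Promoters whose start lay in a window were rich in CpG. The 389 RefSeq sequences, each 300 bases long, held a median of 32 CpG (quartiles 24 and 39) and 69.7% G and C. The 183 sequences with starts in hyper windows held 18, and the 15982 of 32851 sequences with 8 or more CpG held 21. A window needs 8 listed positions, so some CpG are required by the rule, and the last set is the closer comparison. Several motifs were searched on both strands. GGGCGG, the core of SP and KLF factor motifs, was in 82.0% of the sequences, against 56.8% in hyper windows, 65% of those with 8 or more CpG and 35.7% of all. This motif contains a CpG itself, so its share moves with the number of CpG. CCGGAAG, an ETS core, was in 17.5% against 16.3% of those with 8 or more CpG, GCGCATG, a part of the NRF1 motif, in 9.25% against 7.27%, CCAAT in 29.8% against 36.0%, TATAAA in 3.6% against 6.19% and CACGTG, an E-box, in 8.74% against 10.6%.

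The 12 named windows with the most GSC hypo positions held 20 to 31 of them, and the means given here are over hypo positions. Zfp746, a zinc finger repressor, held 31 hypo positions (chromosome 6, 48086000 to 48086999) with a mean of −71.7 points and a range from −80.6 to −29.0. Atp5j, a subunit of the mitochondrial ATP synthase, held 27 with a mean of −48.8 points (chromosome 16, 84835000 to 84835999). Rrbp1, a ribosome-binding protein of the endoplasmic reticulum, and Wnk2, a kinase, also held 27 each, with mean differences of −61.1 and −49.8 points. Wnk2 had 1 hyper position besides. The Atp5j positions were nearly equal, from −53.8 to −45.0 points, and those of Rrbp1 ranged from −86.4 to −25.8.

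Frat2, an inhibitor of the Wnt pathway kinase GSK3, held 26 hypo positions with a mean of −55.0 points. Hivep1, a zinc finger transcription factor, held 25 with −84.3 points beside 1 hyper position, and Marcks, a substrate of protein kinase C, 25 with −68.4 points. Rgmb, a BMP co-receptor, held 24 (−45.4 points) and Rdx, which links actin to the membrane, 23 (−73.5 points). Ptprf, a receptor tyrosine phosphatase, held 21 (−73.9 points), Wtap, a cofactor of messenger RNA adenosine methylation, 21 (−40.0 points) and Sapcd2 20 (−74.7 points). Ptprf and Sapcd2 had 1 hyper position each. The median window held 10 hypo positions over 124 bp, and the median of the window means was −60.4 points.

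The threshold of 8 positions falls inside a continuous distribution. Windows with exactly 8 hypo positions at a share of 80% numbered 114, with a median mean of −57.3 points, and windows with 7 numbered 150, with −61.0 points. Another 20 windows had 8 or more hypo positions at a lower share.

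Genes of chromatin regulation had windows at 4 of 28 starts that the promoter table holds, Mta1, Arid1a, Suz12 and Phf13, where 1.48% of all genes of the table had one. The list was drawn up partly with earlier results of these data known, so its share is no evidence for the class. Mta1, a subunit of the NuRD deacetylase complex, held 18 hypo positions in GSC (chromosome 12, 113098000 to 113098999). Its mean difference was −52.8 points in GSC, −61.4 and −57.1 in iPSC 1 and 2 and −50.3 and −53.7 in gPSC 1 and 2, with 14, 15, 19 and 14 hypo positions in the lines and no hyper position. The mean difference from the shared reference was negative in all 5 libraries at Mta1, and levels are not listed.

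Arid1a, a subunit of the SWI/SNF remodeller, held 15 hypo positions in GSC (−42.3 points), and the 4 lines held 1, 1, 3 and 0, with 1 hyper position in iPSC 2. Suz12, a core subunit of Polycomb repressive complex PRC2, held 11 in GSC (−42.1 points), and the lines held 0, 1, 1 and 0. Phf13, a reader of histone methylation, had a pair of adjoining windows. The one downstream of the start held 10 hypo positions with −88.2 points in GSC and 0, 0, 1 and 2 in the lines, where each gPSC line also had 1 hyper position. The one upstream held 9 hypo and 1 hyper positions in GSC and 3, 3, 2 and 3 hypo positions in the lines, with 1 hyper position in gPSC 2. Carm1, an arginine methyltransferase, and Hdac1, a histone deacetylase, had windows assigned by the gene's span. The deposited annotation marked the 15 positions of Carm1 as promoter and gave those of Hdac1 no feature. Carm1 held 15 hypo positions (−57.6 points) and 1 hyper position in GSC and none in the lines, and Hdac1 held 8 (−63.1 points) and 3, 0, 3 and 0. Except at Mta1, these windows held few listed positions in the lines or none.

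Germ cell genes had windows at 2 of 26 starts, against 1.48% of all genes. That share includes genes with few CpG at the start, and a share over CpG-rich promoters alone is not given here. This list too was chosen with earlier results known, so its share is no evidence for the class. Dazl encodes a germ cell protein that binds messenger RNA. Its window held 10 hypo positions in GSC with a mean of −47.9 points and 2 hyper positions (chromosome 17, 50293000 to 50293999). The lines held 6, 6, 14 and 8 hyper positions in iPSC 1, iPSC 2, gPSC 1 and gPSC 2, beside 0, 2, 1 and 1 hypo positions, and their means over all kept positions were 54.1, 19.6, 38.2 and 47.2 points. The GSC mean over all kept positions was −24.6 points and the 4 line means were positive. Boll, a relative of Dazl, held 9 hypo positions in GSC between −100 and −69.7 points and no listed position in any line. Tex15, a germ cell protein of transposon silencing, had a window assigned by the gene's span with 13 hypo positions (−85.1 points), all marked as promoter in the deposited annotation, and none in the lines.

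For the lists that follow the share of all genes with a window at the start was again 1.48%, and the same limits hold. Spermatogonial stem cell genes had a window at 1 of 16 starts, Foxo1, which encodes a forkhead factor needed by these cells, with 9 hypo positions between −83.7 and −52.4 points over 87 bp in GSC and no listed position in the lines. Pou3f1, a POU factor that responds to GDNF, held 15 in a window assigned by the gene's span (−61.4 points), all marked as promoter in the deposited annotation, and the lines held 1, 0, 1 and 1. Signalling genes had 1 window at 20 starts, Axin2, a feedback inhibitor of Wnt signalling, with 12 hypo positions (−58.4 points) and 0, 0, 1 and 0 in the lines, with 1 hyper position of 31.9 points in iPSC 2. Hes1, a Notch target, held 9 over 27 bp in a window assigned by the gene's span (−74.2 points), also marked as promoter, and none in the lines. No start among 17 of the pluripotency list or among 21 lineage transcription factors had a window. Of marker genes, 1 of 7 stem cell starts (Foxo1), 0 of 8 pluripotent, 0 of 2 fibroblast and 0 of 1 testis somatic starts had one. Methylation calls do not measure expression, so they do not check the identity of the cells.

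In the pluripotent lines most of the windows held few listed positions. No kept position was listed in 296 and 273 windows in iPSC 1 and 2 and in 208 and 345 windows in gPSC 1 and 2, and 107 windows had none in any line. The hypo positions numbered 647 and 849 in iPSC 1 and 2 and 870 and 499 in gPSC 1 and 2. The hyper positions numbered 117, 174, 286 and 147. The removal of opposite neighbours had taken 452, 440, 924 and 369 hypo and 447, 440, 921 and 370 hyper positions out of these windows, which for hyper positions was more than were kept. The gPSC lines enclosed the iPSC lines for hypo positions, and gPSC 1 was highest in both directions. The mean number of hypo positions was 748 ± 143 for iPSC and 684.5 ± 262 for gPSC (SD, n = 2 each). Their difference of 63.5 had p = 1 in a two-sided exact permutation test that reassigned the lines. The difference turned to −37.5 without iPSC 2 and to −122 without gPSC 2, and grew to 164.5 without iPSC 1 and 249 without gPSC 1. For hyper positions the means were 145.5 ± 40.3 and 216.5 ± 98.3, a difference of −71.0 (exact permutation test, two-sided, p = 0.667), and the groups overlapped. That difference was −1.50 without gPSC 1, −140.5 without gPSC 2 and −42.5 without iPSC 1. Without the removal of opposite neighbours the means of hyper positions were 463 and 643.5, a difference of −180.5 (exact permutation test, two-sided, p = 1), and the difference in hypo positions was −64.0. With 2 lines against 2 the smallest p this test allows is 0.333.

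**Figure D4:**
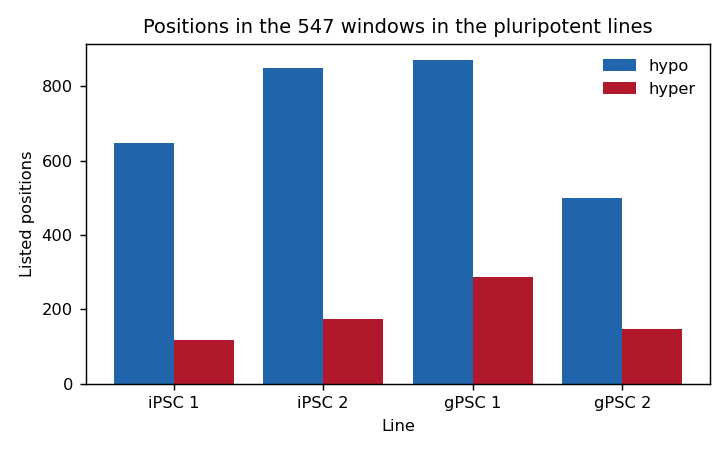
Number of kept hypo (blue) and hyper (red) positions in the 547 windows (y axis) in each pluripotent line (x axis). The 499 and 870 hypo positions of the gPSC lines lie on both sides of the 647 and 849 of the iPSC lines.

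A line was called hypo in a window when it held 3 or more hypo positions at a share of at least 80%. iPSC 1 was called hypo in 52 of 80 windows with 3 or more kept positions, iPSC 2 in 79 of 111, gPSC 1 in 80 of 131 and gPSC 2 in 37 of 60. Over the genome the shares of windows called hypo were 5.39%, 8.82%, 6.41% and 3.71% of those with 3 or more kept positions. The reference is shared, so this excess is not read as a property of the lines. Calls numbered 65.5 ± 19.09 in iPSC and 58.5 ± 30.4 in gPSC (SD, n = 2, difference 7, exact permutation test, two-sided, p = 1), and the difference was −6.50 without iPSC 2, −14.5 without gPSC 2, 20.5 without iPSC 1 and 28.5 without gPSC 1. No line was called hypo in 372 windows, 1 in 128, 2 in 27, 3 in 14 and all 4 in 6. Both iPSC lines were called in 19 windows and both gPSC lines in 14. Shares of joint calls over the genome are not given here, so these joint counts are a description. The calls of hyper numbered 10, 13, 18 and 7, where 86.6%, 77.6%, 84.2% and 90.7% of windows were called hyper over the genome.

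Ranked by the line with fewest hypo positions, and passing over predicted genes, the leading windows were those of Arl8a, Tent4b, Mta1, Rpl26, Btbd10 and Slc18a2. The predicted gene Gm52706, passed over, held 8, 9, 9 and 9 hypo positions in the lines, which puts it above Btbd10. Tent4b, an enzyme that adds tails to RNA, held 17, 15, 15 and 15 hypo positions in the lines, with means of −58.6, −56.4, −55.8 and −56.0 points beside −55.4 in GSC. Rpl26, a ribosomal protein, held 13, 13, 12 and 13 with −46.5, −50.5, −50.4 and −52.6 points beside −50.6 in GSC. All 5 libraries were below the shared reference in both windows.

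At 5 positions of the window of Btbd10 that were listed in all 4 lines, each line had a mean difference of −55.3 points. Slc18a2, the vesicular monoamine transporter, held 6, 9, 8 and 5 hypo positions with means of −75.9, −68.4, −57.5 and −75.6 points, and 1 hyper position in iPSC 2. Equal values were counted only in the windows chosen from GSC values, at positions hypo in GSC and in a line. In iPSC 1 and 2, 145 of 431 and 161 of 419 differences equalled the GSC value within 0.01 points. In gPSC 1 and 2 the counts were 152 of 531 and 89 of 256. The share of equal values over the genome is not given here, so these counts are a description. The differences share the reference, and levels are not listed.

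In other windows some lines held hyper positions where GSC held hypo positions. Fam50b held 8 hypo positions in GSC with −76.7 points (chromosome 13, 34747000 to 34747999), and the lines held 6, 5, 12 and 4 hyper positions, whose means were 40.6, 30.6, 35.2 and 57.9 points. Only gPSC 2 had a hypo position there, 1. Smarca5, the ATPase of ISWI remodellers, held 9 hypo positions in GSC (−45.2 points), and the lines held 6, 1, 1 and 1 hyper and 0, 1, 0 and 1 hypo positions, the hyper ones of iPSC 1 with a mean of 96.2 points. At Ankrd29 the lines held 1, 7, 8 and 2 hyper and 0, 1, 0 and 7 hypo positions. Csf2ra had 1, 1, 6 and 1 hyper beside 7, 1, 2 and 4 hypo positions. Caln1 had 1, 8, 1 and 2 hyper beside 2, 1, 3 and 0 hypo positions. GSC held 8 hypo positions at each, and 1 hyper position at Caln1. Fam50b, Smarca5 and these windows were chosen for hyper positions in the lines, so their counts are a description. Atp5j held 27 hypo positions in GSC, 4 and 3 hyper positions beside 1 hypo position each in iPSC 1 and gPSC 2, and no listed position in the other two lines. The hyper positions of both lines were plus-strand cytosines and the 17 placed GSC positions minus-strand ones, as were the hypo positions of both lines.

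Few windows separated the kinds of line. Of 400 windows with a hypo position in any line, 20 (5%) had more in both iPSC lines than in both gPSC lines, and 18 (4.5%) the reverse. Over the genome these shares were 4.06% and 1.78% of 28766 windows. Cul4b, a ubiquitin ligase scaffold on the X chromosome (38564000 to 38564999), held 14 hypo positions in each iPSC line with −43.2 and −49.8 points, while gPSC 1 held 1 hyper position and gPSC 2 none. GSC held 14 there with −56.3 points. Wdfy3, an autophagy adaptor, held 8 hypo positions in each iPSC line, with 2 hyper positions in iPSC 2, and no hypo position in gPSC. Camk2n2, an inhibitor of CaM kinase, held 6 and 17 in iPSC and 2 and 1 in gPSC, and Rev1, a translesion polymerase, 6 and 4 against 2 and 0. At both genes gPSC 1 had 1 hyper position.

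In the other direction C2cd5 held 10 and 11 hypo positions in gPSC, with 1 hyper position in gPSC 2, and 2 and 0 in iPSC. Slc44a1, a choline transporter, held 5 and 3 in gPSC and 1 and 0 in iPSC, with 1 and 6 hyper positions in gPSC. Dpp9, a peptidase, held 2 and 4 against 0 and 0, Yipf4 2 and 10 and Fndc3b 13 and 1, both against 0 and 0, with 1 hyper position in iPSC 2 at Fndc3b. These windows were chosen for the gap between the kinds, so their counts are a description. Single lines stood apart as well: Ptprf held 20, 21 and 19 hypo positions in iPSC 1, gPSC 1 and gPSC 2 and none in iPSC 2, Zfp746 held 17 in iPSC 1 and no hypo position in the others, and Rdx held 19 in iPSC 2, 6 in gPSC 1 and none in iPSC 1 and gPSC 2.

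**Figure D5:**
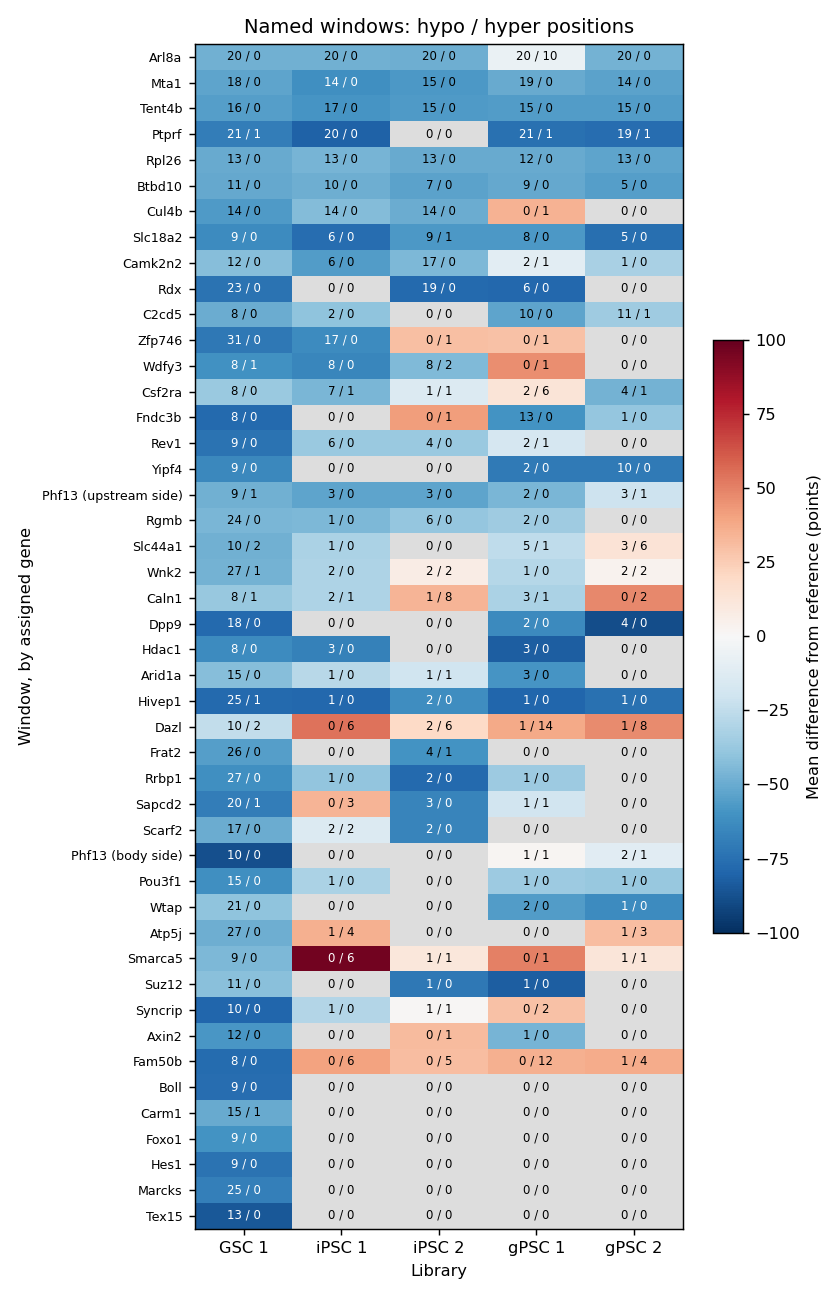
Mean difference from the reference in percentage points (colour, blue lower and red higher, grey for no listed position) in the named windows (y axis, by gene, 1 window on chromosome 18 left out) and the 5 libraries (x axis), with the numbers of hypo and hyper positions in each cell. Arl8a, Mta1, Tent4b and Rpl26 are blue in all libraries except gPSC 1 at Arl8a. Marcks, Carm1, Hes1, Foxo1, Boll and Tex15 have values in GSC only.

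The signed difference, over hypo and hyper positions together, was compared between iPSC and gPSC at positions listed in all 4 lines, where the reference cancels. The windows held 115 such positions in 36 windows. Their mean difference was −41.1 and −41.6 points in iPSC 1 and 2 and −41.0 and −39.1 in gPSC 1 and 2. A lower mean can come from lower values at hypo positions or at hyper positions. Both iPSC lines were below both gPSC lines by a small margin, −1.30 points between the means (two-sided p = 0.333 by exact permutation, the lowest value 4 lines allow), which moved between −2.24 without gPSC 1 and −0.354 without gPSC 2. Of all windows with 3 or more such positions limma called 0 of 2278 (0%) at a Benjamini-Hochberg adjusted p of 0.05. The smallest adjusted p was 0.892 by limma, and 121 windows had an unadjusted p under 0.05. Among them 9 were of the 547, 0 of which had an unadjusted p under 0.05. The difference between iPSC and gPSC was −0.50 points at Arl8a (95% interval −8.83 to 7.83), −2.11 at Mta1 (−11.3 to 7.06), −0.50 at Tent4b (−8.77 to 7.78) and 2.56 at Rpl26 (−6.93 to 12.1). The widest interval of the 9 was that of a window without a gene on chromosome 12, −8.29 points (−32.4 to 15.9). At Dazl, whose 3 positions were hyper in the 4 lines, it was −7.13 points (−25.2 to 10.9). Positions listed in all 4 lines differ from the reference by at least 25 points in each, so a line at the level of the reference is not in this comparison.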

How the data were processed

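Single positions of 5 libraries are listed in deposited tables, split by direction. The authors deposited the methylation difference in percent points and a p-value and q-value per position. In the tables no q exceeded 0.01 and no difference was smaller in size than 25 points. Per the submitters' processing notes, methylKit, GATK, Bowtie2 and Bismark were used with mm10 and GRCm38, and versions and roles are not stated there. Neither the minimum coverage nor any merging of strands is given in the sources used here. The strand column reads plus at every position.

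Positions 1 bp from an opposite one in the same library were removed, and windows, calls and counts were computed with pandas 2.3.3. The strand of a cytosine was read from RefSeq promoter sequences (GRCm38.p6). Windows were assigned to the nearest gene start within 2000 bp of the centre, otherwise to a gene spanning the centre. iPSC and gPSC were compared with exact permutation tests and with limma 3.58.1 on window means, with Benjamini-Hochberg adjustment over all windows. In simulated data limma recovered 44% of differences of 20 points, 80.8% of those of 40 and 98.1% of those of 80. Differences of 20 points could therefore often be missed. Replicates are independent lines per the labels' design text.

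Named windows were the 12 with the most GSC hypo positions, those of genes in 6 lists, the 6 with the most hypo and the 6 with the most hyper positions in the line that has fewest, and the 6 with the largest gap between the kinds in each direction, passing over predicted and small RNA genes. Windows, members and lists were chosen with earlier results of these data known. The strand analysis and its alternatives were chosen after seeing the data.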

Additional observations from a re-analysis of the deposited data

Results flagged for a closer look

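In the Fam50b window the mean GSC difference was −76.7 points, and each of the 4 lines was called hyper there. In a window on chromosome 12 with no gene (23189000 to 23189999), the GSC mean was −24.1 points, from 8 hypo and 2 hyper positions, and each line held 6 hyper positions and no hypo position, with means of 38.4, 39.7, 34.2 and 60.5 points in iPSC 1, iPSC 2, gPSC 1 and gPSC 2. GSC and the lines stood on opposite sides of the reference in both windows. The difference was not tested, since the windows were chosen from GSC values and GSC has 1 line.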

How the results depend on the processing

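The number of windows was between 488 and 576 without the removal, with removal within 50 bp, on a grid shifted by 500 bp, with windows of 2000 bp and at a share of 90%, and fell to 321 with a minimum of 10 positions. The excess of hypo positions in iPSC over gPSC turned to −64.0 without the removal. When 1 line was left out it ranged from −122 to 249, and that of windows called hypo from −14.5 to 28.5. Without iPSC 2 these were −37.5 and −6.5. The other 9 and 10 alternatives of these results and all 12 each of the hyper positions and of the mean difference kept their direction. Line numbers do not pair iPSC with gPSC lines. With the number as a replicate block the differences are 63.5, −71.0, 7 and −1.30 by arithmetic (exact sign changes, two-sided p = 1, 1, 1 and 0.5). This block is among the alternatives counted above and could not change their direction. With the block limma called 0 windows. Deviations of same-numbered lines correlated at 0.257 over 2278 windows, and those of crossed lines at −0.257, which is fixed by the first value. limma called 0 windows under each of its 9 alternatives. Among windows with enough placed positions, the share on 1 strand stayed between 85.3% and 89.7% under 5 alternatives chosen after seeing the data. With a minimum of 5 hypo positions, 0.0835% of hypo positions had a second one 1 bp away. Depth is unknown, so which windows a line left unlisted for lack of reads cannot be told.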
